A study of Homo sapiens with 6 samples.

Results

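This account describes 6 genes whose transcripts were far lower in HaCaT keratinocytes given a miR-21-3p mimic than in those given a negative control (NC) mimic: CDH5, BCAS1, PNPLA7, SGK2, MROH7 and the long non-coding RNA RP1-124C6.1. They were chosen by their measured values, as large falls with no overlap between the groups, and make up 6 of the 22152 features in the table, all 6 among the 14792 that passed the filter on low values. Because the members were selected on this contrast, their differences are given as a description and without a test.

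HaCaT is a spontaneously immortalized human keratinocyte line. Cells were transfected with 1 nM of the NC mimic or 1 nM of the miR-21-3p mimic, a synthetic copy of the strand that is released with miR-21-5p from the same precursor, and RNA was taken 48 h later. Polyadenylated RNA was sequenced from 3 libraries a group, which the series describes as separate biological replicates. The libraries held from 24406408 to 27962619 recovered reads, and values are given as reads divided by a scale factor of each library, which leaves 1 read worth close to 1 unit.

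MicroRNAs guide silencing complexes to partly matching messenger RNAs and lower their stability or translation, and the changes that follow in a cell include direct targets as well as genes further downstream. The 6 genes do not form a pathway. They comprise an adhesion molecule of blood vessels, a protein of myelinating glia that is also amplified in breast tumours, a lysophospholipase, a kinase, a HEAT-repeat protein and a long intergenic RNA.

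The NC mimic libraries were not alike. On the first principal component of all tested features other than the 6, which held 46.5% of the variance, NC mimic replicates 1 and 3 scored 21.2 and 13.2, whereas NC mimic replicate 2 scored 1.88, nearer to the miR-21-3p mimic libraries at -11.8, -6.80 and -17.7. The fold changes of the 6 members and of the genes called in related lists are therefore given with and without NC mimic replicate 2, and the part of this library in the results was not tested.

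Among all 14792 tested features, 690 (4.66%) were called lower and 904 (6.11%) higher after the miR-21-3p mimic at a limma adjusted p under 0.05, which is 10.8% in either direction. Groups did not overlap, with every miR-21-3p mimic library below every NC mimic library, for 2186 features (14.8%). All 6 members were without overlap, which the way they were chosen fixes. All 6 were also among the features called lower, which the choice of large falls favours. Without NC mimic replicate 2 the counts of called features rose to 1330 lower and 1627 higher. Features lower without overlap then numbered 3437, and leaving out any other library gave 2650 to 3229, but this count cannot fall when there are fewer libraries to separate. The counts fell to 229 lower and 313 higher without NC mimic replicate 1, to 81 and 95 without NC mimic replicate 3, to 131 and 146 without miR-21-3p mimic replicate 1, and to 163 and 202 without miR-21-3p mimic replicate 3. SGK2 was not among the features called in any of those 4 fits, and nothing is read from the calls of the members in any fit. These counts and shares describe the features at hand: 11782 of the 19951 protein-coding genes of GENCODE 29 had a row, and tested features with a mean value from 20 to 36 numbered 234, against 755 from 36 to 52, bounds picked after the values were seen. A gene without a row was not analysed here, and nothing is read from that about its level.

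CDH5 (ENSG00000179776.13, chromosome 16) encodes VE-cadherin, the adhesion molecule of endothelial adherens junctions. Its values were 477, 286 and 393 in NC mimic replicates 1, 2 and 3 and 165, 178 and 122 in miR-21-3p mimic replicates 1, 2 and 3. The lowest NC mimic library, replicate 2, was 1.61 times the highest miR-21-3p mimic library, so the groups were apart in every library. The means were 385 ± 95.7 and 155 ± 29.3 (SD, n = 3), and the miR-21-3p mimic mean was 40.2% of the NC mimic mean. The log2 fold change was -1.30 ± 0.17 (SE), and -1.49 without NC mimic replicate 2. In bulk RNA, fewer cells that express a gene and less of its RNA per cell cannot be told apart.

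The identity of the cells was checked with marker lists. Of 14 keratinocyte markers 13 had a row, and their summed values were 393913, 375900 and 393396 in the NC mimic libraries and 393501, 405655 and 375952 in the miR-21-3p mimic libraries, with KRT5 the most abundant and no marker at 0. KRT6A, an activation keratin, was higher (log2 fold change 0.34 ± 0.04, limma adjusted p = 0.00208, 6.96e-10 to 0.0284 over 16 alternatives). ITGB4, an integrin of hemidesmosomes, was lower (-0.26 ± 0.07, limma adjusted p = 0.0385, 0.00213 to 0.145), although the ITGB4 values of the groups overlapped. Ranges over the 16 alternatives, here and below, hold adjusted p of edgeR, DESeq2 and voom as well as of limma. For KRT6A the lowest was from DESeq2, and the lowest from limma was 0.000319. Limma, edgeR and voom called 2 of the 13 markers and DESeq2 called 3, and 4 had an unadjusted limma p under 0.05. Over all tested features limma called 10.8% in either direction, and the difference from this share was not tested. SFN, called by DESeq2 but not by limma, stood at 18900, 19600 and 18300 against 20600, 21000 and 21400 (0.15 ± 0.05, limma adjusted p = 0.0546), and TP63, not called by either, at 7490, 7180 and 7680 against 6860, 7120 and 6460 (-0.13 ± 0.05, limma adjusted p = 0.102), each without overlap between the groups. Of 21 endothelial markers 3 had a row, VWF, MMRN2 and EGFL7, with 0 called by limma, edgeR, DESeq2 or voom, 0 at an unadjusted p under 0.05 and none at 0. Their sum was 3069, 2783 and 2880 in the NC mimic libraries and 2816, 2846 and 2618 in the miR-21-3p mimic libraries, with MMRN2 the most abundant. The other endothelial markers, PECAM1 and KDR included, were not analysed here. COL1A1 was the 1 of 7 fibroblast markers with a row, at 560, 390 and 478 against 372, 378 and 364, and was called lower by DESeq2 but not by limma. Of 6 melanocyte markers 2 had a row, MITF being the more abundant, with sums of 631, 630 and 640 against 586, 616 and 585. CD14 was the 1 of 6 leukocyte markers with a row, at 89.6, 58.7 and 79.1 against 91.8, 92.2 and 69.1, also not called. The part of other cell types in the values of the 6 genes was not tested.

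Of 20 classical and related cadherins 10 were tested, with 0 called by limma, 0 by edgeR, DESeq2 or voom, 2 at an unadjusted p under 0.05 (CDH3 and CDH13) and a median log2 fold change of 0.02, beside 0.00 over all tested features. Without NC mimic replicate 2, CDH13 was called lower (log2 fold change -0.18, limma adjusted p = 0.0259, against -0.16 and 0.0583 with all libraries). The most abundant were CDH1, the epithelial cadherin, at 17500, 19000 and 18900 against 18200, 18800 and 18200, and CDH3 at 14100, 13900 and 14100 against 14600, 15600 and 15000. Among 9 tested partners of the VE-cadherin complex 0 were called lower and 1 higher, with a median of 0.05. This was PTPN11, a tyrosine phosphatase, with a log2 fold change of 0.15 ± 0.04 (limma adjusted p = 0.0483, 0.0223 to 0.188 over 16 alternatives).

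BCAS1 (ENSG00000064787.8, chromosome 20) lies in a region amplified in breast tumours and marks newly myelinating oligodendrocytes. It stood at 504, 386 and 523 in the NC mimic libraries and at 237, 262 and 211 in the miR-21-3p mimic libraries. NC mimic replicate 2 was again the lowest of its group, at 1.47 times the highest miR-21-3p mimic library, and the groups did not overlap. The means were 471 ± 74.2 and 237 ± 25.5 (SD, n = 3), a level of 50.2%, and the log2 fold change was -0.98 ± 0.12 (SE), or -1.12 without NC mimic replicate 2. Of 12 oligodendrocyte and myelin genes 3 had a row, MBP, CNP and MYRF, with 0 called by limma, edgeR, DESeq2 or voom and 0 at an unadjusted p under 0.05. Their sum was 10213, 10108 and 10122 against 9989, 10069 and 9792, with MBP the most abundant and none at 0. Of 8 genes that neighbour BCAS1 or share its name, 5 were tested, with 0 called by limma, edgeR, DESeq2 or voom, 1 at an unadjusted p under 0.05 (BCAS3) and a median of 0.03. The most abundant, ZNF217 and BCAS2, had log2 fold changes of 0.03 ± 0.05 and 0.15 ± 0.09.

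PNPLA7 (ENSG00000130653.10, chromosome 9) is a patatin-like lysophospholipase that cleaves lysophosphatidylcholine to glycerophosphocholine. Its values were 746, 393 and 515 in the NC mimic libraries and 285, 292 and 231 in the miR-21-3p mimic libraries. The NC mimic group spread most here, from replicate 1 down to replicate 2, yet its lowest library was 1.35 times the highest miR-21-3p mimic library. The coefficient of variation was 32.5% among NC mimic libraries, where counting alone gives 4.30%, and 12.4% among miR-21-3p mimic libraries, where it gives 6.04%. The means were 551 ± 179 and 269 ± 33.4 (SD, n = 3), a level of 48.9%. The log2 fold change was -0.99 ± 0.18 (SE), -1.21 without NC mimic replicate 2 and -0.75 without NC mimic replicate 1.

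Of 5 tested patatin-like phospholipases other than PNPLA7, 2 were lower and 0 higher, with a median of -0.13. PNPLA2, the adipose triglyceride lipase, was at -0.23 ± 0.07 (limma adjusted p = 0.0432, 0.00274 to 0.157 over 16 alternatives) and PNPLA8, a mitochondrial and peroxisomal phospholipase, at -0.19 ± 0.05 (limma adjusted p = 0.0489, 0.0422 to 0.187). Of 19 tested genes of lysophosphatidylcholine and glycerophosphocholine metabolism, 2 were lower and 1 higher, with a median of -0.03. GDPD5, a glycerophosphodiester phosphodiesterase, was at -0.51 ± 0.12 (limma adjusted p = 0.0195, 0.00094 to 0.0818) and CHKA, a choline kinase, at -0.29 ± 0.08 (limma adjusted p = 0.0346, 0.0103 to 0.131). LPCAT1, a lysophosphatidylcholine acyltransferase, was higher at 0.27 ± 0.07 (limma adjusted p = 0.0251, 0.00807 to 0.122).

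SGK2 (ENSG00000101049.10, chromosome 20) encodes a serum- and glucocorticoid-regulated kinase, a relative of AKT that acts on ion channels. It had the fewest reads of the 6, with 77.1, 58.7 and 66.4 in the NC mimic libraries and 26.5, 46.1 and 31.4 in the miR-21-3p mimic libraries. The groups were apart by the smallest ratio, 1.27, between NC mimic replicate 2 and miR-21-3p mimic replicate 2. The means were 67.4 ± 9.24 and 34.7 ± 10.2 (SD, n = 3), a level of 51.4%, and the log2 fold change was -0.97 ± 0.21 (SE), or -1.06 without NC mimic replicate 2. The coefficient of variation was 13.7% among NC mimic libraries, where counting alone gives 12.3%, and 29.4% among miR-21-3p mimic libraries, where counting alone gives 16.8%. The reads behind NC mimic replicate 2 and miR-21-3p mimic replicate 2 were 57 (95% exact Poisson interval 43.2 to 73.9) and 45 (32.8 to 60.2). Such intervals cover counting error only. Z98752.3, a gene on the same strand, overlaps SGK2 in GENCODE 29 and was not analysed here, so the SGK2 reads are uncertain in origin.

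Among 11 tested kinases and activators related to SGK2, 0 were lower and 2 higher, with a median of 0.07. AKT1 was at 0.17 ± 0.04 (limma adjusted p = 0.0346, 0.0181 to 0.167 over 16 alternatives). MTOR, the kinase of a complex that activates SGK and AKT, was at 0.27 ± 0.06 (limma adjusted p = 0.0147, 0.00171 to 0.0795). Of 11 tested SGK substrates and channel targets, 5 were lower and 0 higher, with a median of -0.16. Over all tested features 4.66% were lower and 6.11% higher, and the difference was not tested. Leaving out each library in turn, the number called in this list ran from 1 to 6. SCNN1A and SCNN1G, subunits of the epithelial sodium channel, were at -0.38 ± 0.08 (limma adjusted p = 0.0167, 0.000165 to 0.0733) and -0.72 ± 0.20 (limma adjusted p = 0.0419, 0.0135 to 0.152). The kinase WNK4 was at -0.70 ± 0.20 (limma adjusted p = 0.0429, 0.0246 to 0.164), NDRG2 at -0.36 ± 0.06 (limma adjusted p = 0.00851, 0.000535 to 0.0496) and the ubiquitin ligase NEDD4 at -0.16 ± 0.04 (limma adjusted p = 0.0386, 0.0108 to 0.143). NEDD4 counts here as a member of the list, and whether SGK acts on it was not tested. The related ligase NEDD4L, in the same list, was not called, at 0.07 ± 0.05 (limma adjusted p = 0.321). With all libraries NDRG1 was not called either, at -0.16 ± 0.05 (limma adjusted p = 0.0781, and 0.0106 without NC mimic replicate 2). These values describe transcripts only, and kinase activity was not measured.

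Over the 8 lists of related genes, 9 of the 73 tested genes (12.3%) were lower and 4 (5.48%) higher, beside 4.66% and 6.11% of all tested features; the difference was not tested, and the lists were chosen with results of these data known. Leaving out each library in turn, the number of called genes ran from 0 to 1 among the cadherins, 0 to 1 among the VE-cadherin partners, 0 to 2 among the patatin-like phospholipases, 0 to 7 among the lysophosphatidylcholine genes, 0 to 2 among the kinases and 1 to 6 among the SGK targets, the most in each case being reached without NC mimic replicate 2. In all 13 the groups did not overlap. PTPN11 was not called by edgeR, DESeq2 or voom, nor by limma with TMM scaling, and PNPLA8 and WNK4 were not called by DESeq2. In the other direction, DESeq2 called LPCAT4 of the lysophosphatidylcholine genes, which limma did not call. With no filter on low values PTPN11, PNPLA8, SCNN1G and WNK4 were not called (limma adjusted p = 0.0535, 0.0535, 0.0511 and 0.0509), which left 6 related genes lower and 3 higher, and 3 of the SGK targets. NDRG2 kept its call in every alternative run. Every other gene of the 13 lost it without NC mimic replicate 3, miR-21-3p mimic replicate 1 or miR-21-3p mimic replicate 3, and all of these but MTOR also lost it without NC mimic replicate 1. PTPN11, PNPLA8, CHKA, AKT1, NEDD4 and WNK4 lost it as well without miR-21-3p mimic replicate 2, whereas no call among the 13 was lost without NC mimic replicate 2. In that fit the log2 fold changes were 0.17 for PTPN11, -0.29 for PNPLA2, -0.19 for PNPLA8, -0.60 for GDPD5, -0.34 for CHKA, 0.30 for LPCAT1, 0.18 for AKT1 and 0.31 for MTOR. Those of the SGK targets were -0.46 for SCNN1A, -0.84 for SCNN1G, -0.78 for WNK4, -0.39 for NDRG2 and -0.19 for NEDD4. Among the keratinocyte markers, KRT6A kept its call in every alternative run (0.36 without NC mimic replicate 2) and ITGB4, at -0.33 without NC mimic replicate 2, lost it without NC mimic replicate 1 or 3 or miR-21-3p mimic replicate 1 or 3.

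**Figure D1:**
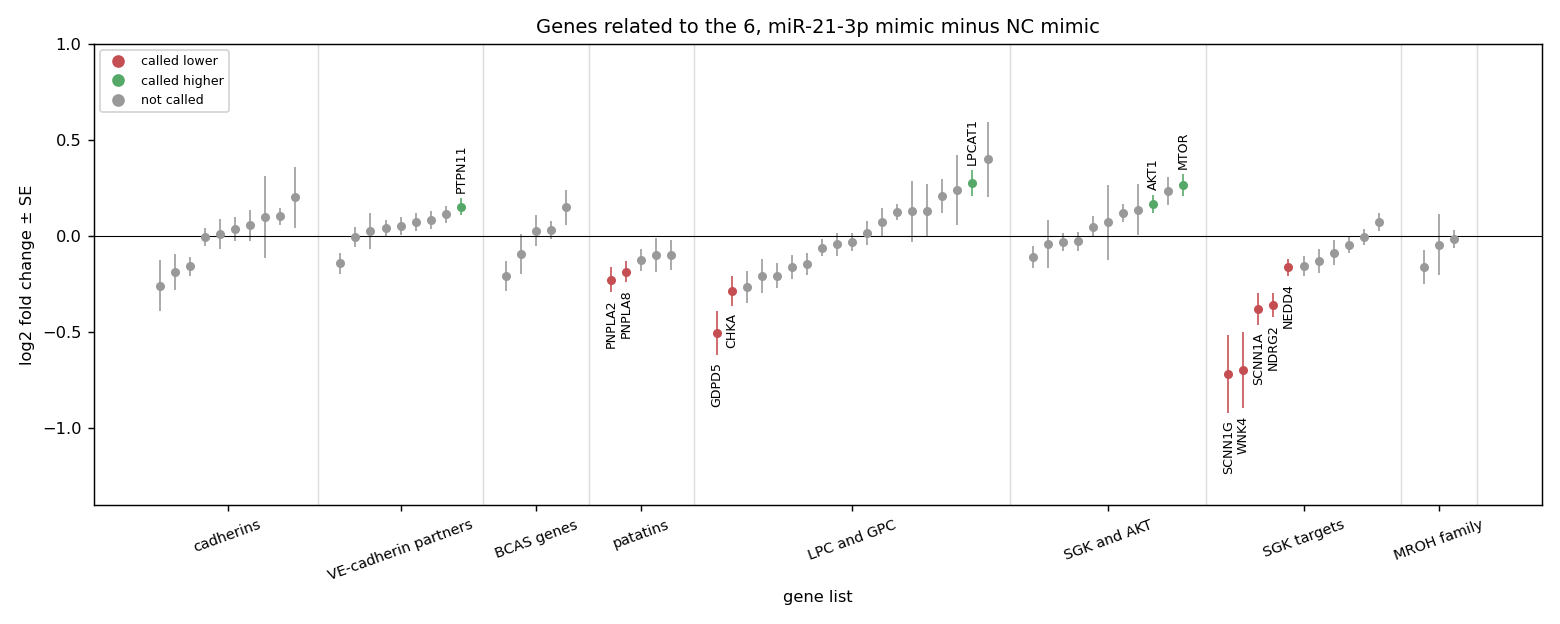
Log2 fold change ± SE (y axis, miR-21-3p mimic minus NC mimic) of each tested gene in the 8 related lists (x axis), red where called lower, green where called higher and grey otherwise. Of 73 genes 9 lie in red and 4 in green, and the lowest are SCNN1G at -0.72 and WNK4 at -0.70.

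MROH7 (ENSG00000184313.14, chromosome 1) belongs to the maestro HEAT-like repeat family, whose functions are little described. Its values were 729, 516 and 656 in the NC mimic libraries and 339, 357 and 319 in the miR-21-3p mimic libraries. The miR-21-3p mimic libraries lay close together and all below NC mimic replicate 2, which was 1.45 times the highest of them. The means were 634 ± 108 and 338 ± 19.0 (SD, n = 3), a level of 53.4%, and the log2 fold change was -0.89 ± 0.11 (SE), or -1.03 without NC mimic replicate 2. The coefficient of variation was 17.1% among NC mimic libraries, where counting alone gives 4.0%, and 5.62% among miR-21-3p mimic libraries, where it gives 5.38%. A read-through transcript with the neighbouring TTC4 overlaps MROH7 and neither was analysed here, so part of its reads may be of that origin. Of 3 tested family members 0 were called by limma, edgeR, DESeq2 or voom and 0 were at an unadjusted p under 0.05, with a median of -0.05. The most abundant, MROH6 and MROH1, were at -0.02 ± 0.05 and -0.16 ± 0.09, and MROH5 was at 0 in every library.

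RP1-124C6.1 (ENSG00000232316.1, chromosome 6) is a long intergenic non-coding RNA, named LINC02518 in GENCODE 29, with no role known to the sources used here. Its values were 177, 104 and 172 in the NC mimic libraries and 45.9, 53.3 and 42.2 in the miR-21-3p mimic libraries. It had the widest gap of the 6 in relative terms, NC mimic replicate 2 being 1.95 times the highest miR-21-3p mimic library. The means were 151 ± 40.8 and 47.1 ± 5.65 (SD, n = 3), a level of 31.2%. The log2 fold change was -1.63 ± 0.20 (SE), the deepest of the 6, and -1.87 without NC mimic replicate 2.

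**Figure D2:**
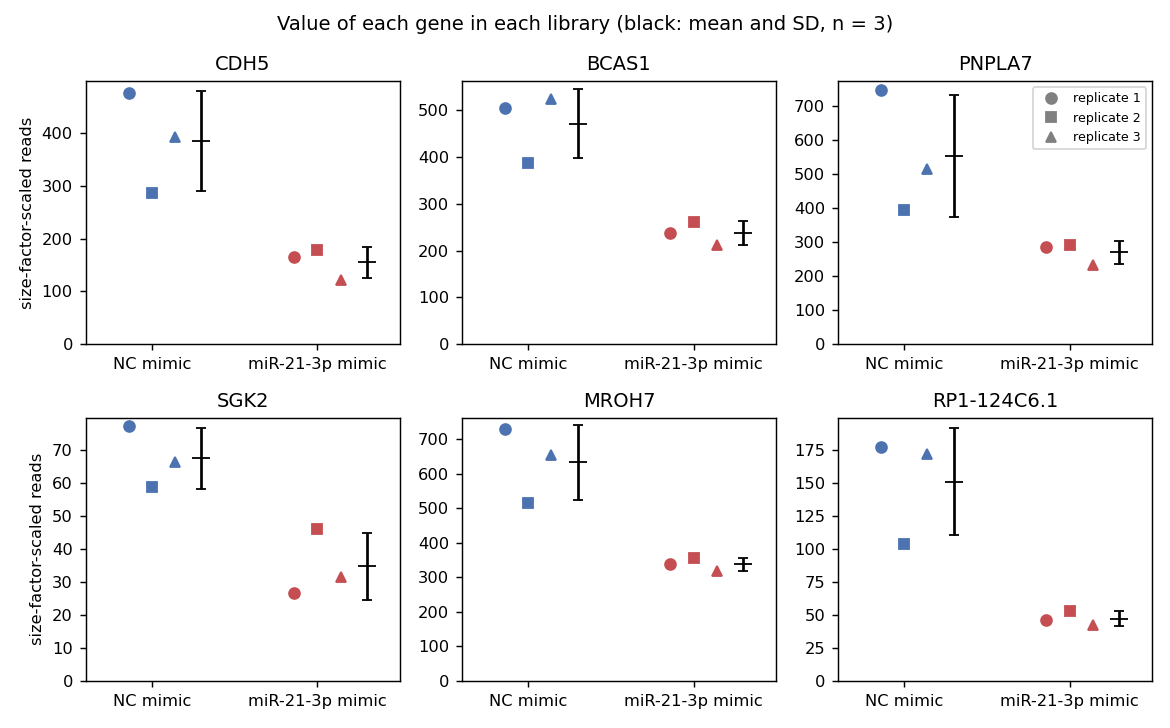
Value in each library (y axis, reads divided by the scale factor of the library) of the 6 genes in the NC mimic (blue) and miR-21-3p mimic (red) groups, with symbols for the replicate number and black bars for the mean and SD of 3 libraries. In every panel the red points lie below the blue ones, by the smallest ratio in SGK2 (1.27) and the largest in RP1-124C6.1 (1.95).

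RefSeq promoter sequences (build GRCh38.p14, from 250 bases before the start to 50 bases from the start on) were held for 2 of the 6 genes, MROH7 and LINC02518. They are shown because they let the start regions of a protein-coding and a non-coding member be read side by side. Capitals mark AGGTCA on either strand, the half-site of many nuclear receptors, which was picked as a motif after the MROH7 sequence had been read, so that its presence there is no independent observation.
MROH7 promoter (chr1:54641536-54641835, plus strand): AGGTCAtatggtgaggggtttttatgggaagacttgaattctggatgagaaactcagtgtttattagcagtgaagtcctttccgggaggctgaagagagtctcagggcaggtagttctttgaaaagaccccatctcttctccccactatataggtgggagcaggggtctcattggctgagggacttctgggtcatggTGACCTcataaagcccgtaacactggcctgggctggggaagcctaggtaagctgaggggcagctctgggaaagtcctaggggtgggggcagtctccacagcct
LINC02518 promoter (chr6:113433398-113433697, minus strand): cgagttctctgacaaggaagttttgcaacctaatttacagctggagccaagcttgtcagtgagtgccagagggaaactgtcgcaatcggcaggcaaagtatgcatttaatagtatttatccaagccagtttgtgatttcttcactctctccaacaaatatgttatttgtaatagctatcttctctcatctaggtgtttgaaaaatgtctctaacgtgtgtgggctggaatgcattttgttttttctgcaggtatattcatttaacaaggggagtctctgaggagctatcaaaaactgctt
AGGTCA occurred 2 times in the MROH7 promoter and 0 times in the LINC02518 promoter. Among 35116 promoters of the same length 13.8% held it at least once on either strand and 1.38% at least 2 times. TATAAA and GGGCGG, searched in the same way, were in neither of the 2 sequences and in 11.5% and 45.0% of all promoters. A match describes letters only and is not evidence of a bound site.

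The genes next to the members in GENCODE 29 had values on some sides. ACOT11, an acyl-CoA thioesterase beside MROH7, was lower, at 1800, 1630 and 1680 against 1350, 1320 and 1320. Its log2 fold change was -0.36 ± 0.05 (limma adjusted p = 0.00403, 1.09e-05 to 0.0327 over 16 alternatives). The lowest of these was from DESeq2, and the lowest from limma was 0.00042. NSMF beside PNPLA7 was higher, at 2430, 2270 and 2320 against 2920, 2930 and 2800, a log2 fold change of 0.30 ± 0.05 (limma adjusted p = 0.00499, 5.18e-05 to 0.0429), whereas MRPL41 on its other side was not called, at -0.13 ± 0.07. L3MBTL1 beside SGK2 and LINC00920 beside CDH5 were not called, at -0.21 ± 0.08 and -0.13 ± 0.11. IFT52, the nearest protein-coding gene on the other side of SGK2, was not called, at 302, 287 and 313 against 270, 291 and 275 (-0.11 ± 0.08). Without NC mimic replicate 2, ACOT11 was at -0.39 and NSMF at 0.28. MIR4756, which overlaps BCAS1, was at 0 in every library. AC005220.1, antisense to BCAS1, was not analysed here, and as the strand setting of the counting is not given in the sources used here, the BCAS1 reads are uncertain in origin to that extent. TTC4 and CYP24A1, next to MROH7 and BCAS1, and the genes on either side of RP1-124C6.1 were not analysed here.

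Levels per kilobase of merged GENCODE 29 exons give a rough scale on which different genes can be set side by side. The merged length counts the exons of every annotated transcript, from 607 bases for RP1-124C6.1 to 9976 for PNPLA7. It may differ from the length of the transcripts present, and this limit is not in the SDs. On this scale RP1-124C6.1 was the most abundant in the NC mimic libraries at 249 ± 67.2 (SD, n = 3). MROH7 at 69.7 ± 11.9, CDH5 at 63.4 ± 15.7, BCAS1 at 57.5 ± 9.07 and PNPLA7 at 55.3 ± 18.0 followed. From MROH7 to PNPLA7, neighbours in this order of levels differed by less than their SD. SGK2 was lowest, at 13.0 ± 1.78. In the miR-21-3p mimic libraries the levels per kilobase were 77.7 ± 9.31 for RP1-124C6.1, 37.2 ± 2.09 for MROH7, 28.9 ± 3.12 for BCAS1, 27.0 ± 3.35 for PNPLA7, 25.5 ± 4.82 for CDH5 and 6.69 ± 1.97 for SGK2. RP1-124C6.1 thus stayed the most abundant and SGK2 the least on this scale, while CDH5 moved below BCAS1 and PNPLA7 by less than its own SD.

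Among all tested features, 24 had a log2 fold change at or below the -0.89 of MROH7. Of these 21 were without overlap between the groups, and 16 of the 21 had a mean value of at least 20, the 6 members and 10 others. By fitted log2 fold change RP1-124C6.1 ranked 2, CDH5 4, PNPLA7 10, BCAS1 11, SGK2 12 and MROH7 24. The 10 others ran from -1.05 for CTC-210G5.1 and -1.01 for ZNF205-AS1 through C9orf96, FBXO39, TMEM176A, CTD-2201I18.1 and SYN3 to -0.91 for SHPK, whose identifier has the name AC027796.3 in GENCODE 29, and -0.90 for ABP1 and AC009133.14. The feature with the most reads among these, ABP1, which encodes diamine oxidase (AOC1), had 2990, 1650 and 2540 in the NC mimic libraries and 1310, 1490 and 984 in the miR-21-3p mimic libraries. Its lowest NC mimic library was again replicate 2 and its highest miR-21-3p mimic library replicate 2.

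**Figure D3:**
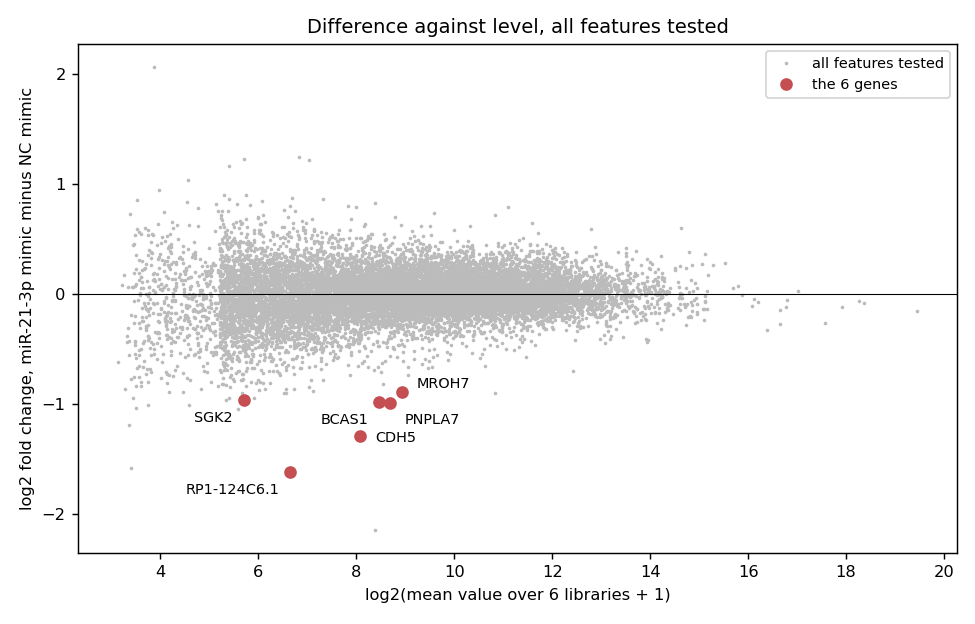
Log2 fold change (y axis, miR-21-3p mimic minus NC mimic) against log2 of the mean value over 6 libraries plus 1 (x axis) for all 14792 tested features in grey, with the 6 genes in red. The 6 lie at the lower edge, from -0.89 for MROH7 to -1.63 for RP1-124C6.1, and the grey point below them overlapped between the groups.

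Within the groups the same libraries were often the highest or the lowest, though the full order of libraries was not the same in all 6 genes. NC mimic replicate 2 was the lowest of its group in 6 of 6 genes, against 59.6% of the 2180 other features that were lower without overlap and 34.3% of all tested features. NC mimic replicate 1 was the highest in 5 of 6, BCAS1 being the exception, against 56.4% and 36.1%. In the miR-21-3p mimic group replicate 2 was the highest in 6 of 6, against 43.8% and 34.2%, and replicate 3 the lowest in 5 of 6, with SGK2 lowest in replicate 1, against 48.1% and 34.7%. Among the 10 other largest falls NC mimic replicate 2 was the lowest of its group in 8, all but C9orf96 and SYN3, and miR-21-3p mimic replicate 2 the highest in 10. The mean deviation of the 6 from their group means was 0.27, -0.35 and 0.08 (log2) in NC mimic replicates 1, 2 and 3 and -0.03, 0.20 and -0.17 in miR-21-3p mimic replicates 1, 2 and 3. The same libraries stood nearest to the other group on the first component, NC mimic replicate 2 at 1.88 and miR-21-3p mimic replicate 2 at -6.80, and their part in this was not tested.

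**Figure D4:**
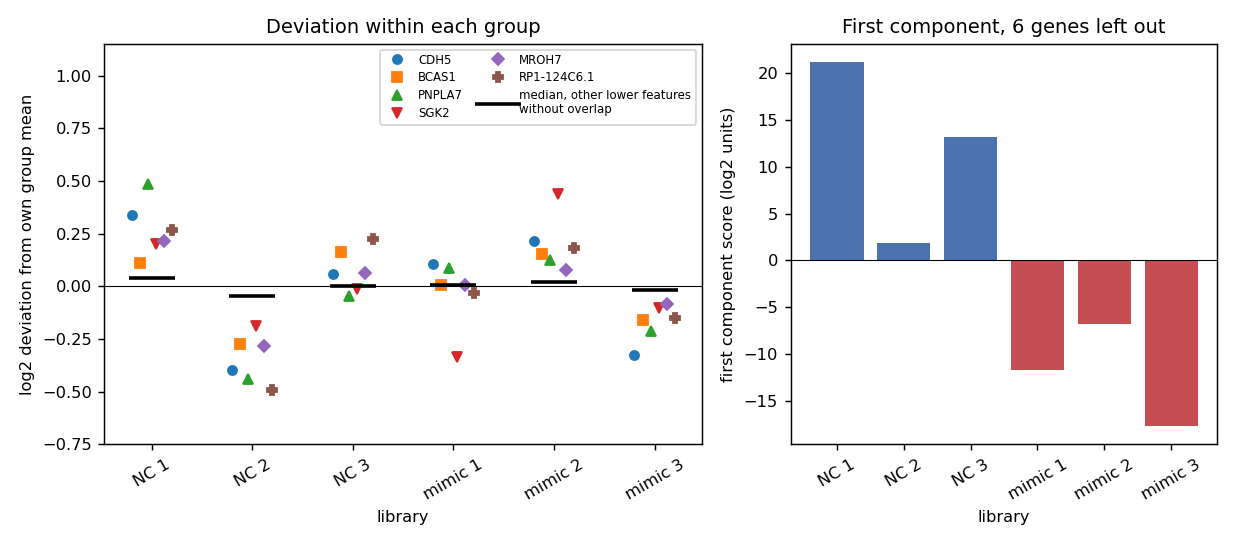
Left, log2 deviation of each gene from the mean of its own group (y axis) in each library (x axis), with black bars for the median of the 2180 other lower features without overlap. Right, score of each library on the first component of all other tested features. NC mimic replicate 2, at a mean deviation of -0.35, is the lowest of its group in all 6 genes and scores 1.88, the NC mimic score nearest to the miR-21-3p mimic libraries.

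The features whose pattern was most like each member were found by Pearson's r of log2 CPM (recovered reads scaled to the total of each library) over the 6 libraries, as a description. They were FBXO7 (r = 0.998) and FAM89B (0.998) for CDH5, PNRC1 (1.00) and TSPAN1 (0.999) for BCAS1, and ACSF2 (0.999) and TLE2 (0.998) for PNPLA7. For SGK2 they were AC004076.7 (0.997) and CALML3-AS1 (0.996), for MROH7 LCN2 (0.999) and ZNF37A (0.998), and for RP1-124C6.1 RGL2 (0.997) and CDC14B (0.996). The fold changes of these features were smaller than those of the members, from -0.40 for PNRC1 to -0.14 for FBXO7 on the log2 scale. They are the highest of a search over the 14523 tested features with a mean of at least 20, less the members. With 6 libraries, values of r near 1 can come from the search alone. The 6 libraries fall into separate groups, and how far r reflects the difference between the groups was not tested.

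Leaving out each library in turn, the log2 fold change of CDH5 lay between -1.49 and -1.13, of BCAS1 between -1.12 and -0.90, of PNPLA7 between -1.21 and -0.75, of SGK2 between -1.19 and -0.80, of MROH7 between -1.03 and -0.78 and of RP1-124C6.1 between -1.87 and -1.49. Their sign is fixed by the choice of genes whose groups do not overlap, and nothing is read from it. The lowest value came without NC mimic replicate 2 in 5 of the 6 genes and without miR-21-3p mimic replicate 2 in SGK2. This follows from the deviations of the libraries from their group means and is no separate observation.

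**Figure D5:**
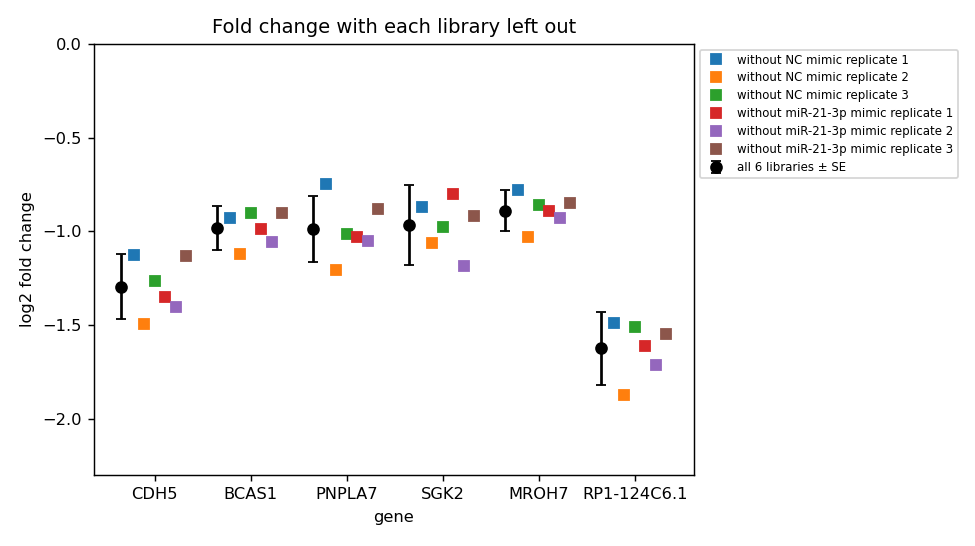
Log2 fold change (y axis, miR-21-3p mimic minus NC mimic) of the 6 genes (x axis) with all 6 libraries (black, ± SE) and with each library left out (coloured squares). The squares without NC mimic replicate 2 run from -1.03 for MROH7 to -1.87 for RP1-124C6.1.

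VMP1, the host gene at the miR-21 locus, was not called, at 3040, 3490 and 3270 against 3490, 3500 and 3500 (log2 fold change 0.10 ± 0.05). The mimic itself is a short RNA that polyadenylated libraries do not measure, and MIR21 was not analysed here.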

How the data were processed

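Polyadenylated RNA of 6 libraries was analysed from the deposited table of 22152 features. The submitters' processing notes name bcl2fastq 2.18.12, cutadapt 1.15, TopHat2 2.1.1, featureCounts (Subread 1.5.2) and DESeq2. Genome build, annotation and strand setting are not given in the sources used here; the labels state stranded mRNA libraries, whereas the methods text of the study speaks of small RNA libraries. The deposited values are a signal: read counts per feature that the authors divided by a scale factor per library and wrote with 3 significant digits. No columns were left unused. Whole reads were recovered from the step of the low values, 100% of which (up to 20 reads) came within 0.1 of a whole read. The design had assumed raw counts with edgeR as the test; as the table held scaled values, limma 3.58.1 (R 4.3.3) with a mean-variance trend was fitted to log2(value + 1), which understates changes of low features. Features passing edgeR's filterByExpr (minimum count 10) on the recovered reads were tested and called at a Benjamini-Hochberg adjusted p under 0.05. edgeR 4.0.16 with TMM on the recovered reads, added after seeing the data, called 767 lower and 886 higher. DESeq2 1.42.0, voom, other filters, a replicate block and leaving out each library were also run, and limma after TMM scaling and with pseudocounts of 0.5 and 8 was added after seeing the data. The procedure was tested on simulated data.

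The members and gene lists were chosen with earlier results of these data known. Genes named by rule were the 6 members and the 2 features most alike to each (mean of at least 20). The 10 other largest falls without overlap (mean of at least 20) were added. Every called gene of a related list, or else its 2 most abundant, was also named. The neighbours of each member and the most abundant gene of each marker list completed the rule. Genes outside this rule were named too, among them KRT6A, ITGB4, SFN, TP63, VWF, EGFL7, CNP, MYRF, CDH13, BCAS3, NEDD4L, NDRG1, MROH5 and RPS28. Of the 22152 features 19987 had an identifier in GENCODE 29, used for names, neighbours and exon lengths, which may differ from the annotation that was counted. Features at 0 in every library numbered 5278. Values rest on 24406408 to 27962619 recovered reads a library.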

Additional observations from a re-analysis of the deposited data

How the results depend on the processing

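The log2 fold changes of the 6 genes moved by less than 1 SD (pooled within groups, log2 scale) under the 16 alternatives. The filters and the replicate block leave the fold change as it is by construction. Leaving out a library cannot move it by as much as 1 SD, also by construction, so nothing is read from the bound in those fits. The direction of the changes is fixed by how the genes were chosen. Outside the fits without a library, counts of called features over the whole table stayed within 1.5 times those given, 511 lower and 679 higher with the replicate block among them. Same-numbered libraries did not deviate together (r = -0.00, -0.20 and -0.16), so the replicate numbers were not taken as pairs; with the replicate block 4 related genes were lower and 2 higher, in place of 9 and 4, and ITGB4 lost its call (limma adjusted p = 0.0504). Leaving out each library in turn gave from 81 to 1330 features lower, 95 to 1627 higher, 1 to 14 related genes lower and 0 to 5 higher. Features lower without overlap numbered 2650 to 3437, a count that cannot fall when a library is left out and so is not comparable with 2186. The highest counts of called features came without NC mimic replicate 2, and the cause was not tested. Depth limits SGK2 most, whose lowest library held 26 reads.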

Other observations

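RPS28, a protein of the small ribosomal subunit, had the lowest fitted log2 fold change of all tested features, -2.15 ± 0.66 (SE), and was not called by limma. Its values were 77.1, 913 and 760 in NC mimic replicates 1, 2 and 3 and 104, 84.0 and 69.1 in miR-21-3p mimic replicates 1, 2 and 3. NC mimic replicate 1 lay among the miR-21-3p mimic libraries, and NC mimic replicates 2 and 3 far above them. RPS28 was chosen after its values were seen.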
